A study of Mus musculus with 5 samples.

Results

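The genes described here are 10 genes of the unfolded protein response and of protein folding in the endoplasmic reticulum (ER), followed in cultured mouse neural precursor cells at 1 h and 8 h of sham exposure. The members were chosen by gene symbol: Hspa5, Hsp90b1, Xbp1, Atf6, Ern1, Eif2ak3, Dnajb9, Herpud1, Calr and Pdia4. All 10 were found among the 46078 genes of the expression tables, and all 10 were also present in the count table. The cells were taken from adult mice with no mutation that are labelled female, C57BL/6 and 5 to 8 weeks old (the methods of the study give C57BL/6j and an older age), and came from the subventricular zone, the stem cell niche that lines the lateral ventricles. They were expanded as free-floating neurospheres, plated on poly-D-lysine and given phosphate-buffered saline (PBS) alone, as the control arm of a hydrogen peroxide experiment. RNA was taken after 1 h (replicates 1 and 2) or 8 h (replicates 13, 14 and 15), so that 5 libraries from 2 groups were compared. No library exposed to hydrogen peroxide was analysed here, and each group is therefore a cell culture at a time after PBS. Whether the cultures were under stress was not tested.

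The unfolded protein response matches the folding capacity of the ER to the load of new secretory and membrane proteins. Sensors in the ER membrane are held inactive by the chaperone BiP (Hspa5) while folding capacity is sufficient: the kinase and nuclease IRE1 (Ern1), the kinase PERK (Eif2ak3) and the membrane-bound transcription factor ATF6 (Atf6). When unfolded proteins accumulate, IRE1 splices Xbp1 mRNA so that it encodes an active transcription factor, PERK phosphorylates the translation factor eIF2, and ATF6 is cut free, and together they raise the transcription of chaperones and of the machinery that removes misfolded proteins. The tables give the total level of Xbp1 and do not separate its spliced form, and they carry no information on phosphorylation or cleavage.

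ATF6 and XBP1 act through short promoter elements, so the promoter windows of the members are shown before the measurements. The windows were taken from RefSeq on GRCm38.p6 and run from 250 bases before to 50 bases after the annotated start, and 9 of the 10 members were matched (all but Atf6). The ER stress response element (ERSE, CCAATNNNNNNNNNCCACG, both strands) was found in Hspa5, Hsp90b1 and Calr, that is in 33.3% of the member windows, against 9.72% of 72 windows of other pathway genes and 0.119% of all 32851 windows. The windows of these 3 chaperone genes, of Herpud1, which holds the related element ERSE-II (ATTGGNCCACG), and of Xbp1, the member with the largest difference between the times, are printed 5′ to 3′ on the strand of the gene. Capitals mark matches to ERSE, to ERSE-II and to a relaxed ERSE (CCAATNNNNNNNNNCCNNG, which includes every ERSE match).
Hspa5: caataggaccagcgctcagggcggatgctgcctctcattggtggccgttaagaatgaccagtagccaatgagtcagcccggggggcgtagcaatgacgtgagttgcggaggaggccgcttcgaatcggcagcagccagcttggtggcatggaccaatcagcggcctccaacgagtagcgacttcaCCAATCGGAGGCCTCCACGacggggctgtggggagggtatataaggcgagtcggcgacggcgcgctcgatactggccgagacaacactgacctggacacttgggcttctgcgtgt
Hsp90b1: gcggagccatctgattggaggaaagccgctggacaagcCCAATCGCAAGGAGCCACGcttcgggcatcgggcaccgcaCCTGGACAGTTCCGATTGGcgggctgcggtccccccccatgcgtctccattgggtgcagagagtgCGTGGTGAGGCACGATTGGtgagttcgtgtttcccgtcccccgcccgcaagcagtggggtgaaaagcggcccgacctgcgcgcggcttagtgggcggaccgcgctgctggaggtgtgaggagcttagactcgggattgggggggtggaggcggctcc
Calr: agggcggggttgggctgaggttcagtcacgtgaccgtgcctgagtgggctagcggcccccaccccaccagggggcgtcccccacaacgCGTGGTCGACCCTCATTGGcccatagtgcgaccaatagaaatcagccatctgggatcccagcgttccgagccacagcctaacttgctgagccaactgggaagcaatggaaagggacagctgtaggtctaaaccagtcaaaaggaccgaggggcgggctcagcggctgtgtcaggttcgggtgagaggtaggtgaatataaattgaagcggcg
Herpud1: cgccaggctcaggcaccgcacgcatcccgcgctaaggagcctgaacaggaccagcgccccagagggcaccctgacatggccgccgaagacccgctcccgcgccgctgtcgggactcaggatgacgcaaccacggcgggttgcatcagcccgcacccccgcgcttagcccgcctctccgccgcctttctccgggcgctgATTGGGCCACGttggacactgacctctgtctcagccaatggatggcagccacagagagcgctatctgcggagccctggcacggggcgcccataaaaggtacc
Xbp1: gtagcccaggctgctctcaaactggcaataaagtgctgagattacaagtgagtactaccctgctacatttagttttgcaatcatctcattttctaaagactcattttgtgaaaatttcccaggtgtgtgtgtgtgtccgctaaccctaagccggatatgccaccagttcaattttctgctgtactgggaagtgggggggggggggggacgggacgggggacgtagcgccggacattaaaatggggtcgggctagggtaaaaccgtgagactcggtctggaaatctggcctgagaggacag

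These windows lie at chr2:34771840-34772139 (plus strand, Hspa5), chr10:86705395-86705694 (minus strand, Hsp90b1), chr8:84846882-84847181 (minus strand, Calr), chr8:94386179-94386478 (plus strand, Herpud1) and chr11:5520391-5520690 (plus strand, Xbp1). In Hspa5 the ERSE spanned bases -65 to -47 from the start, on the strand of the gene. Hsp90b1 held an ERSE on its own strand at -212 to -194 and another on the opposite strand at -107 to -89, with a relaxed match between them at -172 to -154. The Calr match was on the opposite strand at -162 to -144. Herpud1, which helps to assemble the complex for ER-associated degradation, held ERSE-II at -52 to -42, an element found in 0.0365% of all windows. It also held TGATGNAA, the core of the elements bound by ATF4 with a partner, on the opposite strand at -112 to -105, a match found in 3.97% of all windows. No member window held TGACGTGG, a core of the element bound by XBP1 and ATF6, which occurred in 0.676% of all windows. Ern1, Eif2ak3, Dnajb9, Pdia4 and Xbp1 had no match to any of the elements searched within these 300 bases.

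**Figure D1:**
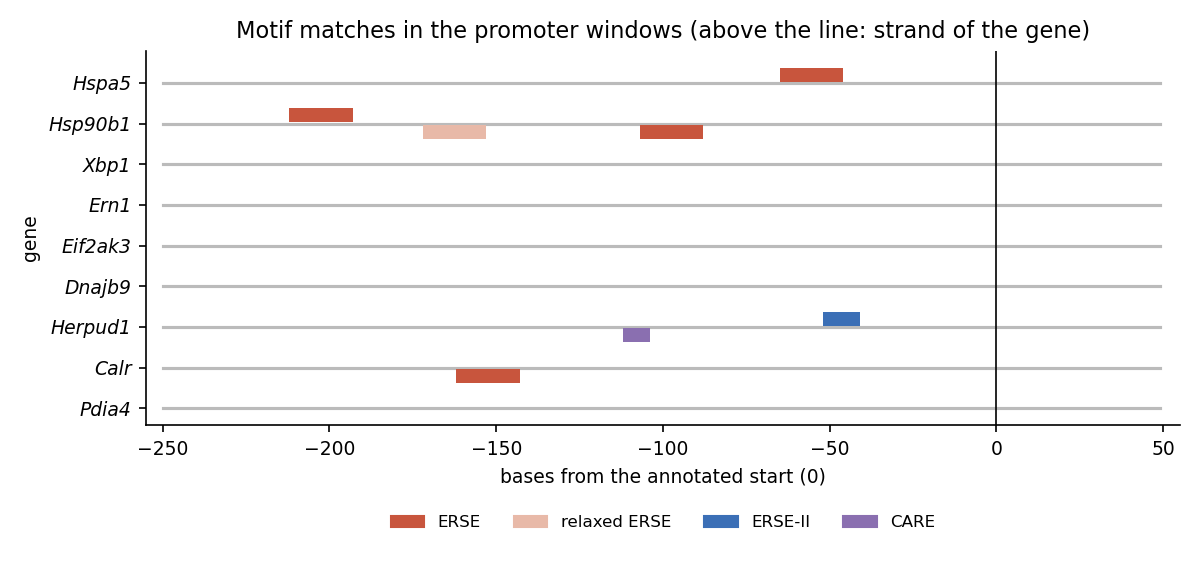
Positions of motif matches in the promoter windows of 9 members, in bases from the annotated start, with matches on the strand of the gene above each line and matches on the opposite strand below it. Matches to the ER stress response element lie in Hspa5, Hsp90b1 and Calr, and the matches in Herpud1 are ERSE-II and the ATF4-type element.

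Before the results, the libraries have to be set against their labels. All 5 are labelled female, yet Xist was at 165 and 200 TPM in 8 h replicates 13 and 15 and at no more than 0.061 TPM in the other 3, in which 4 Y-linked genes summed to 138 to 181 TPM. The same 2 libraries carry identifiers of another series (identifier series 2, a numbering that the sources used here do not explain), and mitochondrial genes took 6.23% to 6.30% of their TPM against 10.7% to 11.1% in the 3 libraries of series 1. Only 8 h replicate 14 shares series 1 with the 1 h libraries, so time and series were largely confounded. In TPM, a fit with the series therefore compares replicate 14 alone with the 1 h libraries, and its values rest on that library. For the members, and for other genes named for their change, values from such a fit are given where they differ by over 1.5 times. The count table holds 13988166 to 18572154 counts a column. Its 8 h columns did not follow the expression tables of the same name: over 6860 genes, once each gene's own offset between counts and TPM (taken from the 1 h libraries) and the median difference were removed, 79.1% of the values of column 13 lay within 0.1 (log2) of the TPM of replicate 14, 79.1% of those of column 15 lay within 0.1 of the TPM of replicate 13, and column 14 came closest to the TPM of 1 h replicate 2, with 41.3%. The counts are therefore given beside the TPM values as a separate reading by column name. All 8 neural stem and precursor markers were at 1 TPM or more, led by Fabp7 at 8582 TPM on average; markers of microglia (0 of 5 at 1 TPM or more) and choroid plexus (0 of 4) were near 0, while 5 of 5 neuronal, 4 of 5 oligodendrocyte-lineage, 1 of 5 endothelial and 1 of 4 ependymal markers reached that level. Summed neuronal markers were at 68.1 to 68.3 TPM at 1 h and 43.2 to 62.4 TPM at 8 h, with Tubb3 at 19.0 and 19.3 TPM in the series 2 libraries and at 37.4 to 42.9 TPM in the others, while Snap25 was no lower at 8 h (10.8 to 15.8 against 10.3 and 10.8 TPM). Mbp, of the oligodendrocyte lineage, was at 38.5 and 31.7 TPM at 1 h and at 7.96, 27.8 and 10.99 TPM at 8 h, in a list whose sums overlapped (1357 to 1652 and 1085 to 1699 TPM). Summed ependymal markers were at 23.7 to 27.5 and 16.3 to 18.8 TPM and summed microglial markers at 1.31 to 1.47 and 0.46 to 0.72 TPM. The part of these markers in the differences between the times was not tested.

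All 10 members were expressed in every library, and none passed the test between 1 h and 8 h. In such bulk libraries fewer cells of a type and less RNA per cell cannot be told apart. The most abundant were 4 of the 5 luminal chaperones, led by Calr at 970 TPM (a level corrected for transcript length and scaled to the same total in each library) averaged over the 5 libraries, and the least abundant was the sensor Ern1 at 4.46 TPM. Xbp1 was 44.0 ± 2.89 TPM (SD, n = 2) at 1 h and 65.3 ± 6.60 TPM (SD, n = 3) at 8 h, the largest difference among the members, and Pdia4 was 186 ± 23.3 and 238 ± 8.17 TPM. In the TPM fit without a series term, the 95% intervals of all 10 members lay within a 2-fold change in either direction. Together the members made up 0.263% and 0.224% of all TPM at 1 h and 0.268%, 0.269% and 0.251% at 8 h (replicates 13, 14 and 15), so that the summed level in 8 h replicate 15 lay between those of the 1 h libraries and the groups overlapped.

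In the order of the levels, Calr was followed by Hsp90b1 (665 TPM), Hspa5 (495 TPM) and Pdia4 (217 TPM), and these 4 genes stood above the 95th percentile of the 13870 genes with a mean of at least 1 TPM. Next came Eif2ak3 (62.1 TPM), Xbp1 (56.8 TPM), Dnajb9 (37.2 TPM), Herpud1 (21.2 TPM) and Atf6 (20.6 TPM), with Ern1 last, at the 18.5th percentile. Neighbours whose ranges over the 5 libraries overlapped were Hsp90b1 and Hspa5, Eif2ak3 and Xbp1, Xbp1 and Dnajb9, and Herpud1 and Atf6. Within each of the 5 libraries, however, Hsp90b1 exceeded Hspa5 and Xbp1 exceeded Dnajb9. The spread of a gene over the libraries, as the highest over the lowest TPM, ran from 1.13-fold for Calr to 1.74-fold for Xbp1.

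**Figure D2:**
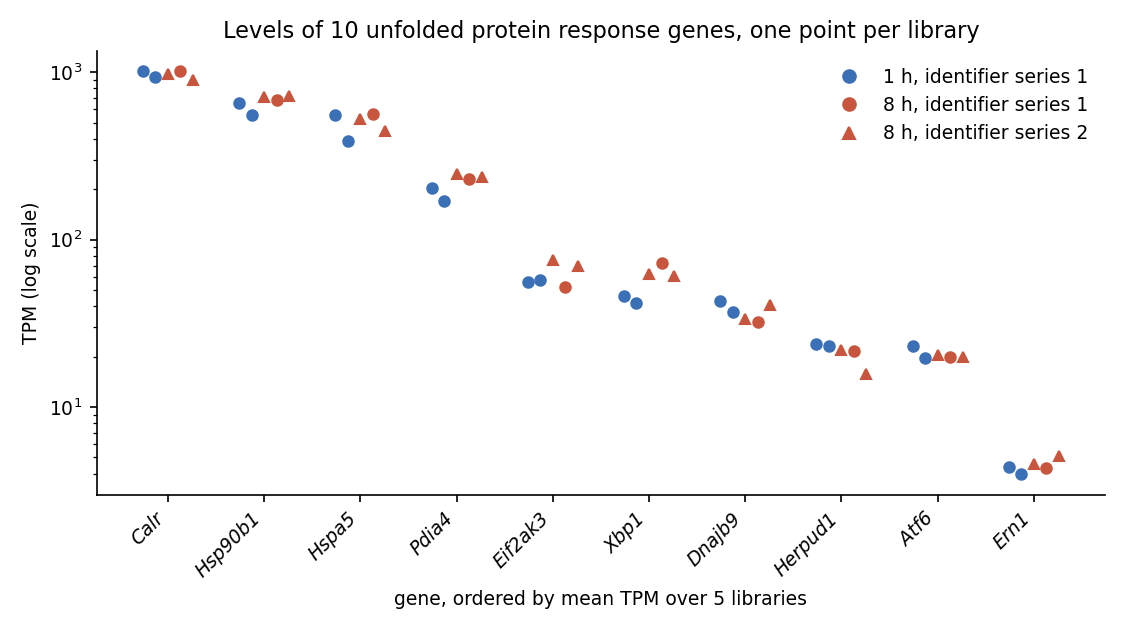
TPM of the 10 members in the 5 libraries on a log axis, ordered by mean level, with 1 point per library, coloured by time and shaped by identifier series. Calr, Hsp90b1, Hspa5 and Pdia4 lie between 169 and 1016 TPM and Ern1 between 3.96 and 5.13 TPM in every library.

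The sensors differed little between the times. Ern1 (chr11:106394650-106487852 on GRCm38, as all gene positions here, minus strand), which encodes IRE1α, was at 4.36 and 3.96 TPM in 1 h replicates 1 and 2 and at 4.55, 4.31 and 5.13 TPM in 8 h replicates 13, 14 and 15. The groups overlapped, and the log2 fold change (8 h against 1 h, on log2(TPM + 1)) was 0.13 ± 0.16 (SE; adjusted p = 0.681, limma with Benjamini-Hochberg adjustment), or 0.042 in a fit with the series. Atf6 (chr1:170704674-170867771, minus strand) was at 23.3 and 19.5 TPM at 1 h and at 20.4, 19.9 and 19.8 TPM at 8 h. Its 3 values at 8 h lay within the range of the 1 h pair, and the log2 difference was -0.08 ± 0.12 (SE; limma adjusted p = 0.743).

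Eif2ak3 (chr6:70844515-70905245, plus strand), which encodes PERK, followed the identifier series more than the time. It was at 55.7 and 57.1 TPM at 1 h and at 76.0, 52.4 and 69.2 TPM at 8 h. Replicate 14, the 8 h library that shares series 1 with the 1 h pair, was the lowest of all 5, and replicates 13 and 15 were the highest. The log2 fold change was 0.20 ± 0.17 (SE; limma adjusted p = 0.574), and a fit that included the series gave -0.10 (limma adjusted p = 0.827). Without 8 h replicate 14, when time and series cannot be told apart, it was 0.36 (limma adjusted p = 0.0483).

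Higher levels in both series 2 libraries than in all 3 series 1 libraries were seen for 4 members: Eif2ak3, Ern1, Hsp90b1 and Pdia4. None was lower in both. Over all 13870 genes tested, 39.8% were higher in both series 2 libraries and 13.5% were lower in both, so the share among the members (4 of 10) was close to the background.

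Xbp1 (chr11:5520659-5525893, plus strand), the transcription factor downstream of IRE1, was at 46.0 and 41.9 TPM at 1 h and at 62.2, 72.9 and 60.8 TPM at 8 h. All 3 libraries at 8 h were above both at 1 h, and the highest was replicate 14. The log2 fold change was 0.56 ± 0.12 (SE; 95% interval 0.26 to 0.85), with an unadjusted p = 0.0036 and an adjusted p = 0.28 over the 13870 genes (limma with Benjamini-Hochberg adjustment), so it did not pass. A fit that included the identifier series gave 0.72 (limma adjusted p = 0.207), since the series 1 library at 8 h had the highest level. Without 8 h replicate 14 it was 0.48 with a limma adjusted p = 0.0238, in a fit in which 20.0% of 13901 genes had an adjusted p no higher than 0.05 and in which Xbp1 and Eif2ak3 were the members that did.

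Among the luminal chaperones, Hspa5 (chr2:34771970-34777547, plus strand), the ER HSP70 known as BiP, showed the widest spread within the 1 h group. It was at 556 and 387 TPM at 1 h and at 528, 560 and 445 TPM at 8 h, and the 1 h replicates enclosed all but replicate 14, which was 560 against 556 TPM. The log2 fold change was 0.13 ± 0.18 (SE; 95% interval -0.32 to 0.59; limma adjusted p = 0.734), or 0.27 in a fit with the series. The value was 0.39 when 1 h replicate 1 was left out and -0.13 when 1 h replicate 2 was. The ratio of 1 h replicate 1 to replicate 2 was 1.44 in TPM and 1.15 in counts scaled by column total (CPM), and only 5.85% of 6860 genes had a larger gap between the ratios of the 2 quantifications. For the other 9 members at least 15.6% of genes had a larger gap.

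Hsp90b1 (chr10:86690209-86705509, minus strand), the ER HSP90 known as GRP94, was at 656 and 557 TPM at 1 h and at 714, 682 and 718 TPM at 8 h. All 3 libraries at 8 h were above both at 1 h, and the difference was 0.22 ± 0.11 (log2; SE; limma adjusted p = 0.431). Leaving out 1 h replicate 2 gave 0.10, leaving out 1 h replicate 1 gave 0.34, and median-ratio scaling gave 0.11. Pdia4 (chr6:47796142-47813512, minus strand), a protein disulphide isomerase, was at 202 and 169 TPM at 1 h and at 247, 230 and 237 TPM at 8 h. Its groups did not overlap either, with a log2 fold change of 0.36 ± 0.11 (SE; 95% interval 0.09 to 0.63; unadjusted p = 0.0164; limma adjusted p = 0.345). Leaving out 1 h replicate 2 gave 0.23 with an unadjusted p above 0.05, and with 8 h replicate 13 left out, with median-ratio scaling or in a fit with the series the unadjusted p was also above 0.05. Within series 1 alone, 8 h replicate 14 remained above both 1 h libraries for both genes.

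Calr (chr8:84841850-84846934, minus strand), the calcium-binding lectin chaperone calreticulin, was the steadiest member. It was at 1016 and 941 TPM at 1 h and at 976, 1013 and 901 TPM at 8 h, so the groups overlapped. Its log2 fold change was -0.02 ± 0.10 (SE; 95% interval -0.28 to 0.23; limma adjusted p = 0.92), or 0.051 with the series. Dnajb9 (chr12:44205897-44210068, minus strand), a J-domain co-chaperone of BiP also known as ERdj4, was at 43.2 and 36.7 TPM at 1 h and at 33.3, 32.3 and 40.5 TPM at 8 h. Replicate 15 at 8 h lay between the 1 h libraries, and the log2 fold change was -0.17 ± 0.14 (SE; limma adjusted p = 0.573), or -0.30 in a fit with the series.

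Herpud1 (chr8:94386438-94395377, plus strand) was at 23.8 and 23.1 TPM at 1 h and at 21.9, 21.7 and 15.7 TPM at 8 h. All 3 libraries at 8 h were below both at 1 h, replicate 15 by the widest margin. The log2 fold change was -0.25 ± 0.17 (SE; limma adjusted p = 0.516), and it was -0.11 within series 1 alone.

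**Figure D3:**
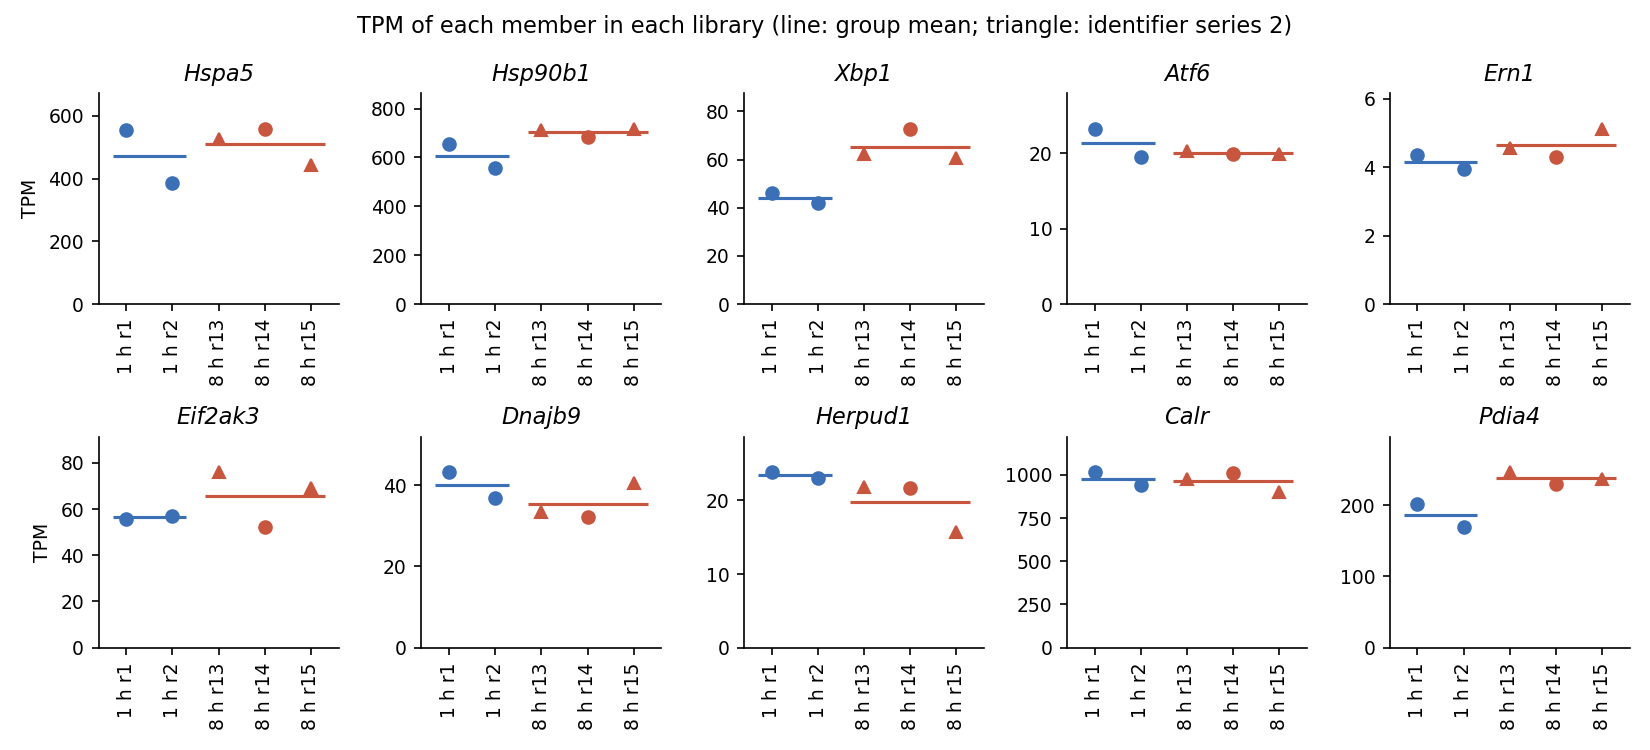
TPM of each member in each library (r1, r2, r13, r14 and r15 are replicate numbers), with lines at the group means, circles for identifier series 1 and triangles for series 2, each axis starting at 0. The 8 h points of Xbp1, Hsp90b1 and Pdia4 lie above both 1 h points and those of Herpud1 below them, and the other 6 members overlap.

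Read as a group, the members stood close to all genes. With calls set at a 2-fold change and an adjusted p no higher than 0.05, 0 of the 10 members and 0.0433% of the 13870 genes were called by limma. Unadjusted p-values under 0.05 were found for 2 members, Xbp1 and Pdia4, against 12.3% of all genes. Of the members, 3 (Hsp90b1, Xbp1 and Pdia4) were higher in all 8 h libraries, against 23.7% of all genes, and 1 (Herpud1) was lower in all, against 9.43%. The log2 fold change was positive for 6 members and negative for 4, with a median of 0.13 beside 0.10 over all genes tested. When the fit included the series, the members' median was 0.046 beside 0.013 over all genes.

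In the count table, read by column name with all columns included, no member separated the times. By edgeR's quasi-likelihood test, 0 of 10 members and 0% of 7590 genes were called, no member had an unadjusted p under 0.05 (2.62% of all genes did), and DESeq2 called 0 members with none at an unadjusted p under 0.05. The groups overlapped for all 10 members, while 11.6% of all genes were higher and 7.05% lower in all 8 h columns. Xbp1 was at 68.7 and 62.2 CPM in the 1 h columns and at 101.6, 61.3 and 83.4 CPM in 8 h columns 13, 14 and 15. Column 14, which matched no 8 h expression table, was below both 1 h columns, and the log2 fold change of Xbp1 was 0.30 ± 0.22 (SE; adjusted p = 0.966, edgeR with Benjamini-Hochberg adjustment), or 0.49 without that column. Without it, Xbp1 and Dnajb9 (log2 fold change -0.37) had unadjusted edgeR p-values of 0.0202 and 0.0350, with 478 of 7584 genes under 0.05. Both adjusted p-values were 0.746 (edgeR). In count fits the series was set by column name, so column 13 entered as series 2 although it matched the TPM of replicate 14 (series 1). Such a fit gave -0.13 for Xbp1.

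Column 14 was the lowest of the 5 for 5 members, and the share over all genes was not computed. Pdia4, among these members, was at 349 and 297 CPM at 1 h and at 398, 284 and 391 CPM at 8 h. Hspa5 was at 1363 and 1181 CPM in the 1 h columns and at 1449, 1098 and 1274 CPM in the 8 h columns, a log2 difference of -0.02 ± 0.15 (SE; edgeR adjusted p = 0.987). Herpud1 differed in direction between the quantifications. It was at 29.4 and 31.5 CPM at 1 h and at 32.0, 44.2 and 27.8 CPM at 8 h, a log2 difference of 0.16 ± 0.21 (SE; edgeR adjusted p = 0.966) that was -0.04 without column 14. In a count fit with the series Herpud1 was at 0.50, a value that rests on column 14 alone at 8 h. The sign was shared between TPM and counts by 8 of the 10 members, all but Hspa5 and Herpud1.

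**Figure D4:**
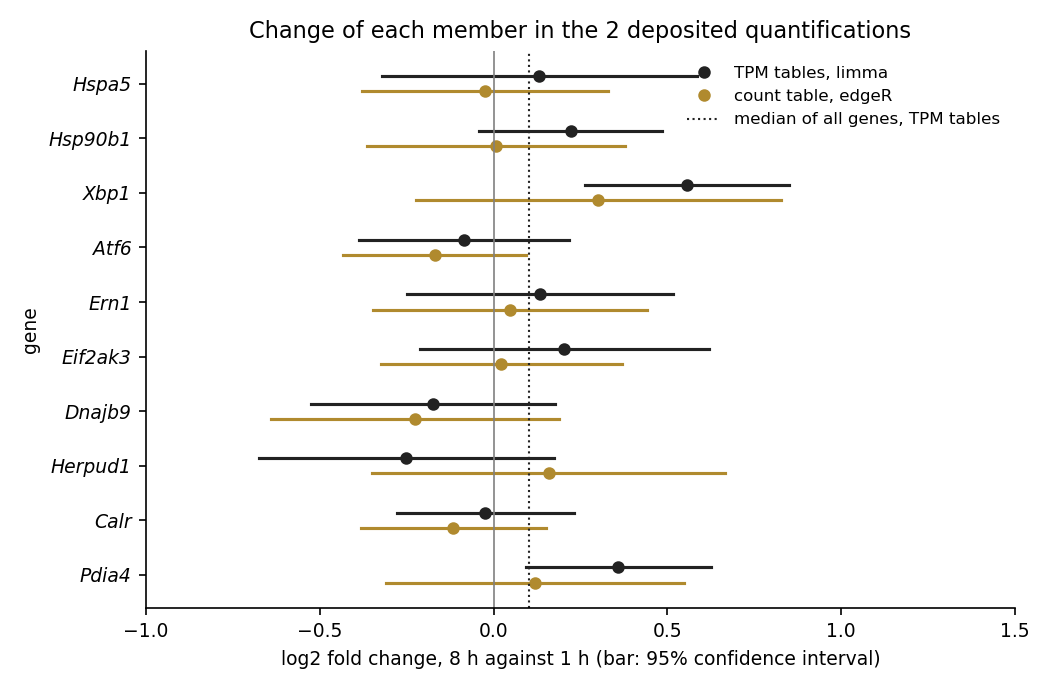
Log2 fold change of each member (8 h against 1 h) with 95% confidence intervals from the TPM tables (limma) and from the count table (edgeR); the dotted line is the median of all genes in the TPM tables, 0.10. Only the TPM intervals of Xbp1 and Pdia4 lie wholly above 0, and every count interval includes 0.

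Of the other genes of the pathway, 90 genes in 8 lists of which 88 were tested, 0 were called by limma. An unadjusted p under 0.05 was found for 13, 12 of them higher at 8 h and 1 lower, against 1321 higher and 391 lower among the 13870 genes. Groups that did not overlap were higher at 8 h for 23 and lower for 6, against 3285 and 1308 over all genes. The log2 fold change was positive for 70 and negative for 18, against 9138 and 4732 over all genes. The median log2 fold change was 0.14 beside 0.10 over all genes, and 0.025 beside 0.013 in a fit with the series. In the PERK branch, Ppp1r15a (GADD34), the phosphatase subunit that reverses eIF2 phosphorylation, was at 34.5 and 27.9 TPM at 1 h and at 18.8, 18.8 and 18.6 TPM at 8 h. Its log2 fold change was -0.70 ± 0.13 (SE; unadjusted p = 0.0016; limma adjusted p = 0.262), and a fit with the series gave -0.69. Atf4, the transcription factor of that branch, was the most abundant gene of its list (277 TPM) and overlapped between the times, and Eif2s1, the eIF2 subunit that PERK phosphorylates, had a log2 fold change of 0.28 (limma adjusted p = 0.397). Named after their values were seen, Ddit3 (CHOP), a transcription factor induced downstream of ATF4, was at 17.2 and 16.5 TPM at 1 h and at 21.1, 28.7 and 17.7 TPM at 8 h, and Chac1, a glutathione-degrading enzyme, at 4.27 and 4.204 TPM and at 4.15, 11.7 and 3.44 TPM. Both were highest in 8 h replicate 14, and their log2 fold changes were 0.37 and 0.34, the opposite direction to Ppp1r15a. Trib3, of the same list, was also highest in that library, but its log2 fold change was -0.48, the same direction as Ppp1r15a. In a fit with the series, which rests on replicate 14 alone at 8 h, Ddit3, Chac1 and Trib3 were at 0.73, 1.28 and 0.40.

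In the lectin folding cycle, which reads sugar trimming on new glycoproteins, Mogs, the glucosidase that removes the first glucose, was at 17.9 and 21.5 TPM at 1 h and at 41.4, 31.3 and 37.8 TPM at 8 h. Its log2 fold change was 0.87 ± 0.16 (SE; unadjusted p = 0.0016; limma adjusted p = 0.262). In counts it was 0.64 with an edgeR adjusted p above the threshold. Canx, the membrane-bound relative of Calr, averaged 522 TPM, with a log2 fold change of 0.23 (limma adjusted p = 0.437), or 0.088 in a fit with the series. Lman1, a cargo receptor for glycoproteins leaving the ER, had 0.39 (limma adjusted p = 0.388), or 0.13 with the series. The counts of unadjusted p under 0.05 in the lists are to be read against the 12.3% of all genes. Among the disulphide-forming enzymes they were 2 of 12, Pdia5 (0.52, or 0.17 with the series) and the oxidase Ero1l (0.37, or 0.41), while Pdia3, the most abundant at 554 TPM, was at -0.0087, or 0.047 (all log2 fold changes).

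Of 15 genes for translocation into the ER, 3 had an unadjusted p under 0.05, among them both subunits of the signal recognition particle receptor, Srpr (log2 fold change 0.39, or 0.22 in a fit with the series) and Srprb (0.42, or 0.22). Of 17 tested genes of ER-associated degradation 1 did, Edem1 (0.39, or 0.21), and of 9 tested genes for stress sensing and signalling 2 did, Creb3l2 (0.58, or 0.14) and Traf2 (0.47, or 0.30). None of the 14 partners of the ER HSP70 and HSP90 did, and their 14 log2 fold changes were all positive (0.04 to 0.38), as were those of 9138 of the 13870 genes; the most abundant was Manf, at 174 TPM. For these lists the medians in a fit with the series were -0.034 (stress sensing and signalling), -0.010 (degradation), -0.0061 (partners) and 0.025 (translocation).

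Of 7 paralogues outside the ER, 1 had an unadjusted p under 0.05 and the other 6 overlapped between the times. Hspa8, the constitutive cytosolic relative of Hspa5, was at 1961 and 1902 TPM at 1 h and at 3312, 3151 and 3241 TPM at 8 h, higher in all 3 and close in value among them. Its log2 fold change was 0.74 ± 0.10 (SE; unadjusted p = 0.000355; limma adjusted p = 0.214) and 0.71 in a fit with the series, against 0.13 and 0.27 for Hspa5. The log2 fold changes of the other paralogues were 0.27 (Hspa9, or 0.027 with the series), 0.26 (Hsp90aa1, or 0.22), 0.04 (Hsp90ab1, or 0.11), 0.26 (Trap1, or 0.027), -0.15 (Hspa1a, or -0.43) and 0.21 (Hspa1b, or -0.084), the last pair at means of 1.32 and 2.02 TPM. In counts Hspa8 was at 3337 and 3060 CPM at 1 h and at 5073, 2858 and 4949 CPM at 8 h, where column 14 was below both 1 h columns (edgeR log2 fold change 0.40, unadjusted p = 0.166).

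**Figure D5:**
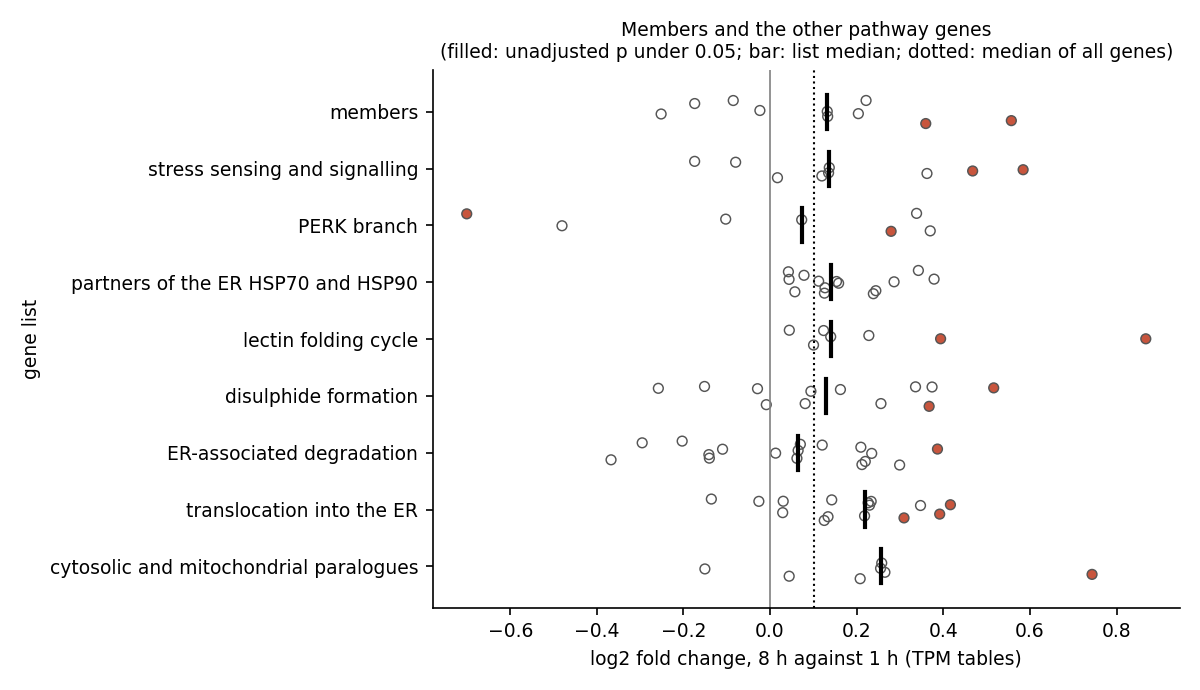
Log2 fold change (8 h against 1 h, TPM tables) of the 10 members and of 88 other genes in 8 lists, 1 point per gene, filled where the unadjusted limma p was under 0.05, with a bar at each list's median. The points to the far left and right are Ppp1r15a (-0.70), Mogs (0.87) and Hspa8 (0.74), and the dotted line is the median of all genes, 0.10.

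The genes with an ERSE in the promoter window did not share a direction. Of the members, Hspa5, Hsp90b1 and Calr had log2 fold changes of 0.13, 0.22 and -0.02. Of the other pathway genes with the element, Canx (0.23), Creld2 (0.15), Dnajc3 (0.34, or -0.089 in a fit with the series), Pdia6 (0.09) and Ero1lb (0.37, or 0.096) were positive and Syvn1 (-0.37), the ubiquitin ligase of ER-associated degradation, was negative (-0.11 with the series), none with an unadjusted p under 0.05. The seventh, Derl3, was listed at 0 TPM in every library. These genes are named because they hold the element.

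The members did not form a single profile over the 5 libraries. Measured as the distance between centred log2(TPM + 1) values, the closest pairs were Hsp90b1 with Pdia4 (0.16), Calr with Atf6 (0.16) and Ern1 with Hsp90b1 (0.17), and the farthest apart were Xbp1 and Herpud1 (0.94). The genes closest to Hspa5 among 9478 genes with a mean of at least 10 TPM were Eif4g2 (0.08), Usp48 (0.13), Zfp157 (0.14), Dcaf10 (0.14) and Wdr13 (0.15), none of them a member. The nearest member was Calr (0.36), at rank 460, followed by Hsp90b1 (rank 521), Atf6 (730) and Pdia4 (1002). The other ranked members lay between ranks 4393 (Herpud1) and 6534 (Eif2ak3). Since the 5 closest genes were picked by their TPM profile, sharing with Hspa5 a low 1 h replicate 2 follows from the choice. In TPM their replicate 1 over replicate 2 was at 1.35 to 1.54. The same ratio in counts was 1.08 for Eif4g2, 1.22 for Zfp157, 0.99 for Dcaf10 and 0.97 for Wdr13, against 1.15 for Hspa5, and Usp48 had none.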

How the data were processed

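Poly-A RNA from 5 libraries was sequenced by the authors as stranded paired reads and aligned to GRCm38 (STAR within the nf-core pipeline, counts by featureCounts; the submitters' processing notes also list bcl2fastq 2.19.1.403, CASAVA and DESeq2). The deposited tables give TPM, FPKM and coverage per transcript record or gene for each library, and these TPM values were summed per gene identifier; FPKM and coverage as deposited were used only to check the tables, and the program that wrote them is not named in the sources used here. A single deposited table gives read counts per gene for all libraries and holds fewer genes than the expression tables.

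TPM has no depth of its own, so limma 3.58.1 with an intensity trend was applied to log2(TPM + 1) for genes that averaged 1 TPM or more, which understates the change of low genes. Counts were tested with edgeR 4.0.16 (quasi-likelihood), with DESeq2 1.42.0 as an alternative, in R 4.3.3. Calls needed a 2-fold change and a Benjamini-Hochberg adjusted p no higher than 0.05. All tests were two-sided and adjusted over all genes tested. The study takes a replicate of these cells as 1 animal; p-values measure the spread between these libraries. The tests were checked on simulated data. The members and lists were chosen with earlier results of these data known. From each list the text names up to 2 genes per direction with the largest change (mean TPM at least 5, unadjusted p under 0.05, groups not overlapping) and the most abundant gene. Motifs were searched on both strands of the RefSeq windows.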

Additional observations from a re-analysis of the deposited data

How the results depend on the processing

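No alternative called a member. In TPM, the median log2 fold change of the members (0.13) was 0.035 with median-ratio scaling and ranged from -0.00045 to 0.19 when each library was left out in turn. It was 0.046 with the identifier series as a term and with series 1 alone, which gave the same fold changes. Both compare 8 h replicate 14 alone with the 1 h libraries. The number of members with an unadjusted limma p under 0.05 (2) was 1 with median-ratio scaling, where 1556 of 13864 genes were under it. It ranged from 1 to 4 when each 8 h library was left out. The count of 1 came without replicate 13, with 858 of 13826 genes under 0.05. The count of 4 came without replicate 14, with 5200 of 13901 genes under 0.05. Median-ratio scaling moved the median of all genes by -0.10. Signs turned in TPM for Eif2ak3 (-0.10) and Calr (0.051) with the series as a term or series 1 alone, and, when a library was left out, for Hspa5 (-0.13 to 0.39), Atf6 (-0.21 to 0.036) and Calr (-0.079 to 0.032). In counts, the median (0.014) was -0.14 with the series as a term and ranged from -0.072 to 0.096 without each library. That term was set by column name, with column 13 in series 2 although it matched the TPM of replicate 14 (series 1). With that term the count values turned for Hsp90b1 (-0.26), Xbp1 (-0.13), Eif2ak3 (-0.082), Dnajb9 (0.039), Pdia4 (-0.22), and without a library for Hspa5 (-0.13 to 0.086), Hsp90b1 (-0.092 to 0.13), Ern1 (-0.051 to 0.16), Eif2ak3 (-0.10 to 0.098), Herpud1 (-0.038 to 0.30). The cause was not tested. Over the single members, 23 values changed sign under an alternative and 187 kept their direction, with no member called in any setting. An unadjusted p could still cross 0.05, as for Pdia4, and so did the adjusted p of Xbp1 and Eif2ak3 in TPM without 8 h replicate 14. No paired analysis was possible because the 1 h and 8 h groups share no replicate numbers. In the TPM fit without a series term, the 95% intervals of the members reached up to 0.85 (log2) from 0. This limit does not cover a difference between the series.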
